A study of Homo sapiens with 10 samples.

Results

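The comparison of nuclear RNA between cells that express the LALA mutant and cells depleted of the poly(A) polymerases was taken from the deposited table of group means, by keeping the rows that pair LALA nuclear with siPAP nuclear RNA. These rows held 30809 assembled loci, of which 13959 had a mean of at least 1 FPKM in either group and a value above 0 in both, and these are called measured below. FPKM is the number of fragments scaled to exon length and to the fragments mapped in a library, a relative level and not a count. All positions are in hg19 (GRCh37). siPAP nuclear and LALA nuclear RNA had 2 libraries each. The 10 libraries of the series were made from polyadenylated RNA of HEK293, a line derived from human embryonic kidney, with 2 libraries in each of 5 groups. siPAP cells were treated for 3 days with siRNAs against PAPα and PAPγ. LALA is PABPN1 with the substitutions L119A and L136A, carrying a myc tag, read from a genomically integrated copy under a tetracycline-responsive promoter, and its expression followed the removal of doxycycline 3 days before harvest. The LALA line descends from 293ATOA cells and was selected after site-directed integration, and its endogenous PABPN1 genes were left in place, so the mutant, the line and the doxycycline regime on one side and the siRNA transfection on the other cannot be told apart. Nuclear RNA was the detergent-insoluble fraction. The labels name these libraries control and no more, and a figure legend of the study describes its control as the untreated parental line. Control nuclear, control total and siPAP total RNA are given where they show on which side of the comparison a gene departs from control cells.

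The table holds 1 mean per group and no value of a single library. No SD, no test and no library left out can therefore be given, and a gene is called higher or lower in LALA only by a ratio of at least 2-fold between the means, with no pseudocount. No source used here gives the depth. Of the HEK293 markers, VIM in nuclear RNA was at 330.4 FPKM under siPAP and 230.1 under LALA, KRT8 at 229 and 205 and KRT18 at 205 and 164, while PAX2 and NEFM were under 1 FPKM in both. The 10 loci named for markers of liver, blood, endothelial and fibroblast cells summed to 3.80 FPKM in siPAP and 4.73 in LALA nuclear RNA, with HBB at 0 in all groups and PTPRC and CD3E at 0 in siPAP nuclear RNA.

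Poly(A) polymerases add the tail to the 3′ end of a cleaved transcript, and the nuclear poly(A)-binding protein PABPN1 coats the growing tail and stimulates the enzyme. In human nuclei the same pair extends the tails of RNAs that stay in the nucleus, and such hyperadenylated RNAs are degraded by the nuclear exosome, a route known as PABPN1 and PAP-mediated RNA decay (PPD). LALA carries its changes in the region of PABPN1 that stimulates polymerase activity and acts as a dominant negative, whereas siPAP removes the enzymes themselves. The comparison asks in which RNAs these ways of blocking hyperadenylation differ.

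Most RNAs had close levels under both treatments. The median log2 ratio of LALA over siPAP was -0.06 over the 13959 measured loci, with quartiles of -0.25 and 0.16, and 12187 loci (87.3%) lay within 1.5-fold. In LALA, 394 loci (2.82% of those measured) were at least 2-fold higher and 175 (1.25%) at least 2-fold lower. Loci with a mean under 5 FPKM gave most of these. Of the loci with a mean under 2 FPKM, 268 of 2143 were at least 2-fold higher and 68 lower, against 6 higher and 3 lower of 2295 loci with a mean of 30 to 100 FPKM. Over 100 FPKM more loci passed again, with 24 of 801 lower and 8 higher, 19 and 5 of them without a gene name. The median ratio moved with the level too, from 0.21 under 2 FPKM to -0.20 over 100 FPKM. Where the higher mean was 5 FPKM or more, 70 of 9869 loci (0.709%) were higher and 80 (0.811%) lower.

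**Figure D1:**
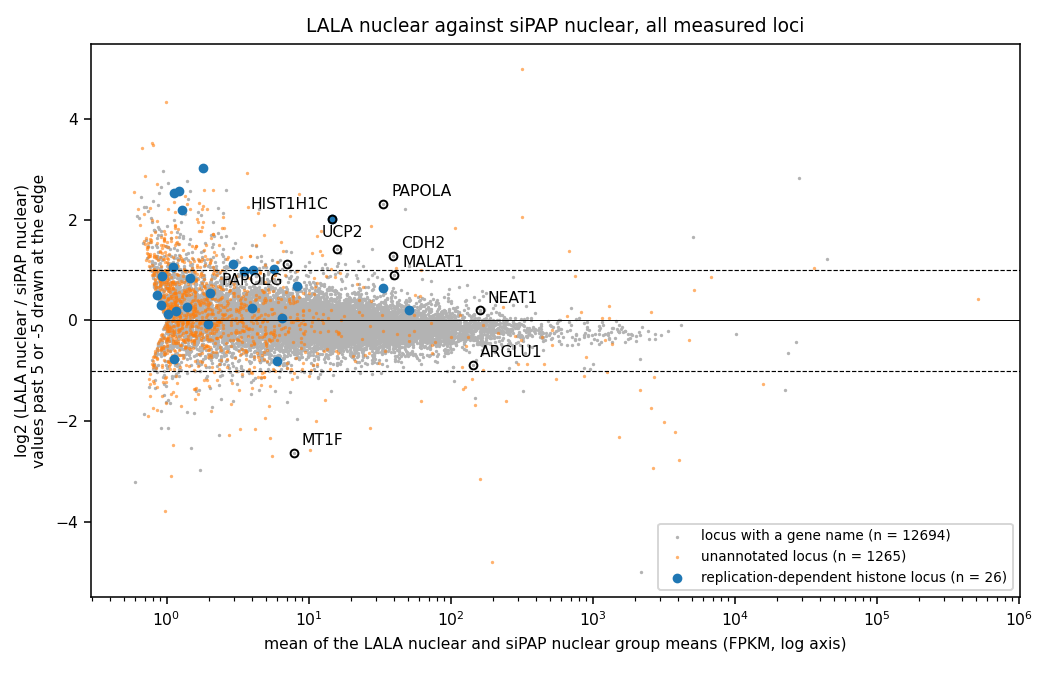
Each point is 1 of the 13959 measured loci, with the mean of its 2 group means in FPKM on a log axis against the log2 ratio of LALA nuclear over siPAP nuclear RNA. Dashed lines mark 2-fold, and the share of loci outside them is least at 30 to 100 FPKM, with PAPOLA, HIST1H1C and CDH2 above the upper line and MT1F below the lower one.

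PAPOLA, 1 of the genes that the siRNAs target, had the largest ratio above 0 among genes with a single name and at least 5 FPKM, where loci named for microRNAs or other small RNAs were not ranked. It encodes PAPα (chr14:96966665-97033453) and was at 61.7 FPKM in control, 11.2 in siPAP and 56.0 in LALA nuclear RNA, and at 79.3 FPKM in control and 10.97 in siPAP total RNA. PAPOLG, which encodes PAPγ (chr2:60983365-61029221), was at 10.6, 4.46 and 9.74 FPKM in the same order of nuclear groups. LALA was thus 4.98-fold above siPAP for PAPOLA and 2.18-fold for PAPOLG, and siPAP was below control for both, as its label states. In bulk RNA, fewer cells that make a transcript and less of it per cell cannot be told apart. Reads of PABPN1 were assembled into 1 locus with its neighbour BCL2L2, chr14:23775949-23795394, and this locus had 89.1 FPKM in control, 99.6 in siPAP and 162 in LALA nuclear RNA, where RNA of the endogenous gene and of the transgene cannot be told apart.

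Most other polymerases and tail-binding proteins stayed within 2-fold. Of the 11 measured loci of the poly(A) polymerase family, PAPOLA and PAPOLG were at least 2-fold higher and 1 of 3 loci named TUT1, the uridylyltransferase that acts on U6 RNA, was lower at 5.49 FPKM in siPAP and 2.35 in LALA. Another TUT1 locus was at 9.77 FPKM in siPAP and 5.30 in LALA, within 2-fold. PAPD5, the polymerase of a nuclear exosome cofactor complex, was at 5.56 and 6.37 FPKM. Among the cytoplasmic poly(A)-binding proteins, PABPC4 was at 115 and 87.1 FPKM and PABPC1 at 412 and 358. None of the 15 core exosome loci and none of 12 loci of its nuclear cofactors passed 2-fold, with medians of -0.12 and -0.13. RBM27, a zinc finger protein that associates with the exosome targeting machinery, had the largest ratio of these, with 17.7 FPKM in control, 9.65 in siPAP and 17.5 in LALA nuclear RNA.

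Of 22 cleavage and polyadenylation loci, only 1 passed 2-fold. It was one of 2 loci of the same span named PCF11, a cleavage factor gene that is known to be terminated early in its own first intron. The major PCF11 locus was at 31.4 FPKM in control, 43.9 in siPAP and 29.7 in LALA nuclear RNA, whereas the minor one was at 4.66, 10.1 and 22.3 FPKM. The pair thus stood on opposite sides, with log2 ratios of -0.56 and 1.14. No source used here says which transcripts each locus holds.

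Genes higher in LALA were mostly genes that were low in siPAP and near control in LALA. CDH2, which encodes N-cadherin, was at 67.7 FPKM in control, 22.8 in siPAP and 55.7 in LALA nuclear RNA. LIN7C, a scaffold protein of cell junctions, was at 30.5, 13.6 and 30.9 FPKM, and PARD6B, a subunit of the Par polarity complex, at 6.19, 2.55 and 6.16 FPKM. In all 3 siPAP was lowest. UCP2, a mitochondrial carrier, was at 28.0 FPKM in control, 8.62 in siPAP and 23.1 in LALA. EVI5, a regulator of the Rab11 GTPase and of cytokinesis, was at 10.8, 4.23 and 10.9 FPKM. DMKN, an epidermal secreted protein, was at 9.78, 3.87 and 10.1 FPKM. In all of these siPAP stood apart and LALA and control were close.

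Several of the 15 single-name genes with the largest ratios above 0 were highest in LALA, some of them only just above control. HSPA1B, an inducible HSP70 chaperone gene, was at 28.3 FPKM in control, 15.2 in siPAP and 40.6 in LALA nuclear RNA. It has a near-identical neighbour, HSPA1A, and 5 loci of the table carry its name, so its share of the reads is uncertain. The uncharacterised LOC728739 was at 2.58, 3.34 and 7.64 FPKM. Others were RPL23AP64, a ribosomal protein pseudogene, at 6.79, 1.58 and 7.32 FPKM, and C6orf226 at 4.50, 2.24 and 6.24. For RPL23AP64 LALA was close to control and siPAP stood apart. The linker histone gene HIST1H1C, described with the histones below, was also highest in LALA. For C11orf65 and LOC100190986 control was highest, at 7.71 and 26.4 FPKM, with 2.09 and 9.35 in siPAP and 5.92 and 23.7 in LALA. A name in this assembly can stand for a noncoding RNA that overlaps the gene.

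Genes lower in LALA were mostly RNAs that were above control in siPAP and less so, or not, in LALA. The noncoding gene DKFZP434I0714 was at 4.09 FPKM in control, 20.8 in siPAP and 7.86 in LALA nuclear RNA. LOC100270804 was at 2.37, 16.02 and 7.21 FPKM, and a locus named KLHL31, a member of the Kelch-like family, at 0.877, 6.49 and 2.50 FPKM. In these 3 the order was control, LALA and siPAP from low to high, where the place of control is fixed by their membership in the study's target list described below. Loci named SUGT1, SCYL3 and RASEF, each 1 of 2 loci of that name, were at 10.8, 5.67 and 5.72 FPKM in siPAP and at 4.01, 2.49 and 2.60 in LALA, and the values in control were 2.04, 1.99 and 2.54.

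MT1F, which encodes a metallothionein that binds zinc and copper, was lowest in LALA, with 5.42 FPKM in control, 13.6 in siPAP and 2.197 in LALA nuclear RNA, a ratio of -2.63 on the log2 scale. It belongs to a family of near-identical genes. ANKRD9 was also lowest in LALA, at 3.80, 6.39 and 2.88 FPKM. A locus named RPL14, 1 of 2 of that name, was at 4.73, 10.6 and 3.42 FPKM, a locus named LOC642236, 1 of 3, at 5.47, 5.72 and 2.09, and the pseudogene TEKT4P2 at 164, 147 and 63.4. The largest ratio of all, -10.75, came from a locus named TMEM42 (chr3:44803206-44915465) at 2.09 FPKM in control total, 3077 in control nuclear RNA, 4400.1 with siPAP and 2.55 with LALA, so that control and siPAP nuclear RNA stood far from LALA and from control total RNA. A locus named ACYP2, 1 of 2, was listed at 0 in both total groups and at 5.22, 13.3 and 3.43 FPKM in the nuclear ones. A locus named BCYRN1 in the table, of the same chromosome X span as OGT, was at 19024 FPKM in control, 32742 in siPAP and 12634 in LALA nuclear RNA.

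**Figure D2:**
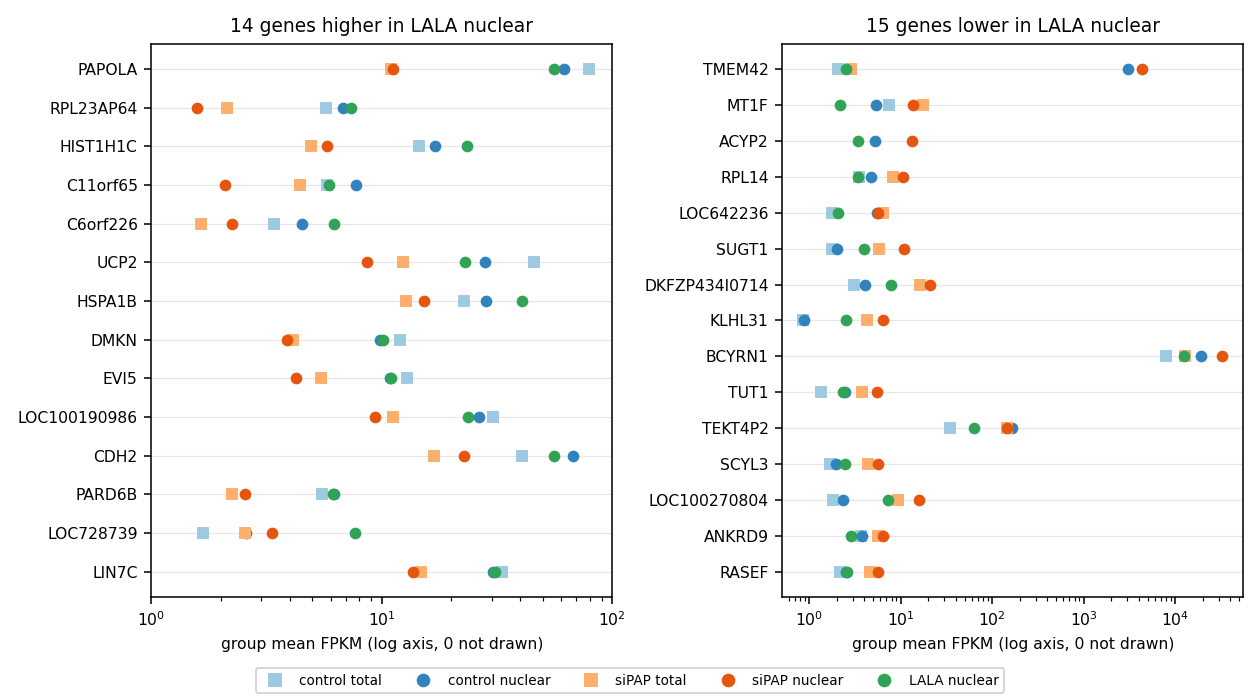
Group mean FPKM on a log axis for 14 genes higher (left) and 15 lower (right) in LALA, taken from the single-name genes with the largest ratios, with squares for total RNA and circles for nuclear RNA. On the left the siPAP symbols mostly lie low, LOC728739 being an exception, as for PAPOLA at 11.2 FPKM against 56.0 in LALA, and on the right the siPAP symbols mostly lie high, as for KLHL31 at 6.49 FPKM against 2.50. The total RNA values of ACYP2 are 0 and not drawn.

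Total RNA gave a readout of the knockdown in libraries that were not part of the nuclear comparison. Genes with a single name, small RNA names left out, whose higher mean was 5 FPKM or more numbered 9097, and 32 of these (0.352%) were at least 2-fold higher and 30 (0.330%) at least 2-fold lower in LALA than in siPAP nuclear RNA. Of the 32 higher genes, 29 were lower in siPAP total than in control total RNA, 17 of them by at least 2-fold, with a median log2 ratio of -1.04. Of the 9096 such genes with a value above 0 in both total groups, 5439 were lower and 49 (0.539%) lower by at least 2-fold, with a median of -0.06. All 29 lower genes that had total values were higher in siPAP total than in control total RNA, 19 by at least 2-fold, with a median of 1.37, while 139 of the 9096 genes (1.53%) were at least 2-fold higher. No source used here says whether total and nuclear RNA came from the same cultures. No test was run on these counts.

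**Figure D3:**
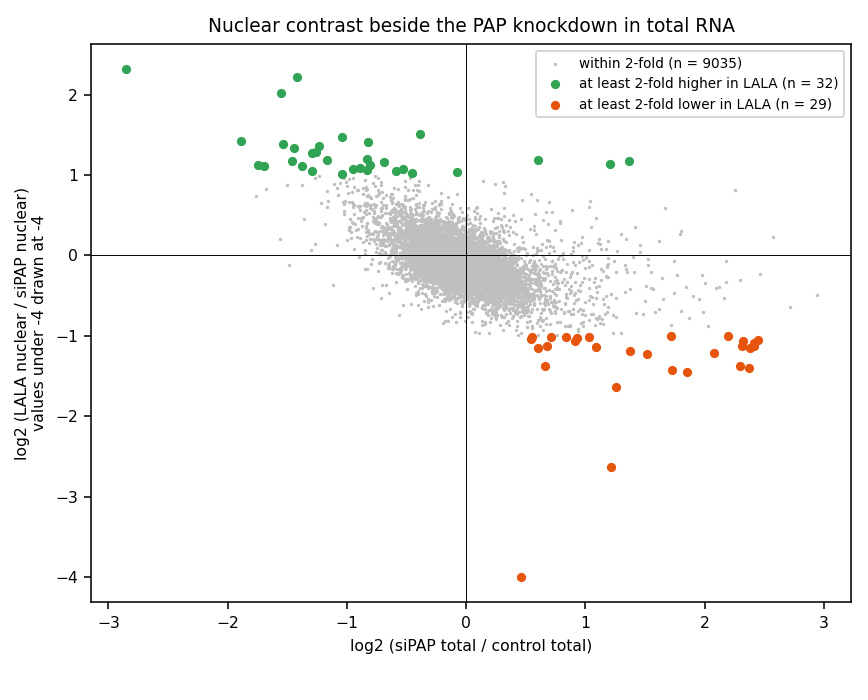
Each point is a single-name gene with at least 5 FPKM in LALA or siPAP nuclear RNA, plotted by its log2 ratio of siPAP total over control total RNA (horizontal) and of LALA nuclear over siPAP nuclear RNA (vertical). Of the 32 genes at least 2-fold higher in LALA, 29 lie left of 0, and all 29 lower genes drawn lie right of 0.

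Control nuclear RNA also showed on which side these genes departed, as a description, since the nuclear ratio itself chose them. In 27 of the 32 genes higher in LALA and in 26 of the 30 lower ones, control nuclear RNA lay closer to LALA than to siPAP on the log2 scale. Over all 9097 genes, control was closer to LALA for 4070 and closer to siPAP for 5026. The median log2 ratio of LALA over control was 0.05 for the higher and -0.08 for the lower genes, and that of siPAP over control was -1.16 and 1.17. Several further genes of the 32 followed this order, among them SLC7A8, an amino acid transporter gene, with 13.0 FPKM in control, 3.74 in siPAP and 8.42 in LALA nuclear RNA. The 5 higher genes with control closer to siPAP were the minor PCF11 locus, LOC728739, PLEKHG4, TMEM182 and HIST1H2AC.

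Other genes of both sets are named here, chosen after their values were seen. On the higher side, FUOM, the fucose mutarotase gene, was at 31.8 FPKM in control, 11.4 in siPAP and 24.8 in LALA nuclear RNA, and UBE2Q1, a ubiquitin-conjugating enzyme gene, at 24.3, 8.15 and 16.8. AASS, the first enzyme of lysine breakdown, was at 20.4, 10.3 and 21.6 FPKM, and PMP22, a peripheral myelin protein gene, at 11.95, 6.19 and 13.8. In all 4 siPAP was lowest. On the lower side, NID1, which encodes the basement membrane protein nidogen, was at 76.0, 127 and 62.8 FPKM, and RNF169, a ubiquitin ligase gene of the DNA damage response, at 25.0, 43.4 and 21.1. ZNF621, a zinc finger gene, was at 18.6, 37.6 and 18.0 FPKM, and RECK, a membrane inhibitor of matrix metalloproteinases, at 5.12, 8.44 and 4.18. In all 4 siPAP was highest and LALA lay below control. LINC00115, a noncoding gene, was at 2.41, 16.2 and 7.75 FPKM and SLC25A53, a gene of the mitochondrial carrier family, at 4.91, 16.5 and 8.22, so that for both LALA lay between control and siPAP.

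Replication-dependent histone genes had the largest median ratio of the gene lists. Their mRNAs are made in S phase, carry no introns and end in a conserved stem-loop in place of a poly(A) tail, so that poly(A) selection captures only the polyadenylated part of their RNA. Of 75 histone loci in the table, 26 were measured, and 9 of these (34.6%) were at least 2-fold higher in LALA, beside 2.82% of all measured loci, and none lower, with a median log2 ratio of 0.66 beside -0.06 for all measured loci. In 23 of the 26 (88.5%) LALA was above siPAP, as it was in 41.2% of all measured loci and 64.1% of those under 2 FPKM, and in 22 it was above control nuclear RNA. Only 8 of the 26 reached 5 FPKM in LALA or siPAP, and their median was also 0.66. For the 14 with a mean under 2 FPKM, 5 were at least 2-fold higher, in a range of expression where 268 of all 2143 loci were. The minimum of 1 FPKM could be met by LALA alone, as for HIST3H2BB, HIST1H2AE, HIST1H4H and HIST1H2BC, each under 1 FPKM in siPAP. No minimum was set on control. The histone counts are therefore a description and were not tested.

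HIST1H1C, the best expressed of the 9 and a linker histone gene, was at 17.0 FPKM in control, 5.77 in siPAP and 23.4 in LALA nuclear RNA, and at 14.5 in control and 4.93 in siPAP total RNA. HIST1H2AC, which encodes an H2A, was at 1.18, 3.77 and 7.65 FPKM in the nuclear groups. The merged locus of HIST1H2AM and HIST1H3J, an H2A and an H3 gene, was at 1.502, 2.71 and 5.47 FPKM. For HIST1H1C siPAP was below both other groups, while for the other pair of loci control was lowest and LALA highest. Among the weaker loci, HIST3H2BB, an H2B gene, was at 0.490, 0.392 and 3.22 FPKM, HIST1H2AE at 0.601, 0.352 and 2.10, and HIST1H4H, an H4 gene, at 0.334, 0.464 and 2.12. HIST1H2BC was at 1.72, 0.332 and 1.92 FPKM. The better expressed HIST3H2A was at 22.6, 26.2 and 40.6 FPKM, HIST1H2BK at 55.0, 47.1 and 54.8, and both stayed within 2-fold. HIST2H2BC went the other way, at 2.42, 7.66 and 4.37 FPKM. Copies of histone genes are near-identical, so the split of reads between them is uncertain.

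The 3′ ends of histone genes on both sides are shown because the stem-loop marks where their usual mRNA stops. The histone stem-loop consensus of 16 letters was found in all 29 histone genes of the 26 loci, between the gene's start and 100 bases past its end, on the gene's strand, and in 49 of 20176 protein-coding genes (0.243%) within a window of 300 bases around the annotated end. The sequences, from the GRCh37 genome (hg19), run 5′ to 3′ with the stem-loop in capitals, and a match is a description only.
HIST1H1C, chr6:26055963-26055992, minus strand: caaaaGGCTCTTTTCAGAGCCaccactgat
HIST3H2BB, chr1:228646234-228646263, plus strand: ccaaaGGCTCTTTTCAGAGCCacccacacg
HIST1H2AE, chr6:26217640-26217669, plus strand: ccaaaGGCTCTTTTCAGAGCCacccacctt
HIST1H4H, chr6:26285350-26285379, minus strand: ccaaaGGCCCTTTTCAGGGCCgcccacttt
HIST1H2BC, chr6:26107636-26107665, minus strand: ccaaaGGCTCTTTTAAGAGCCacccacatt
HIST2H2BC, chr1:149821860-149821889, minus strand: ccaaaGGCTCTTTTCAGGGCCatttaacca
All 29 histone genes held the stem-loop, both those higher in LALA and HIST2H2BC, which was lower. Its presence could therefore not set the 2 sides apart. The 20176 protein-coding genes were not cleared of histone genes and were searched over a different span, so the shares are not like for like.

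**Figure D4:**
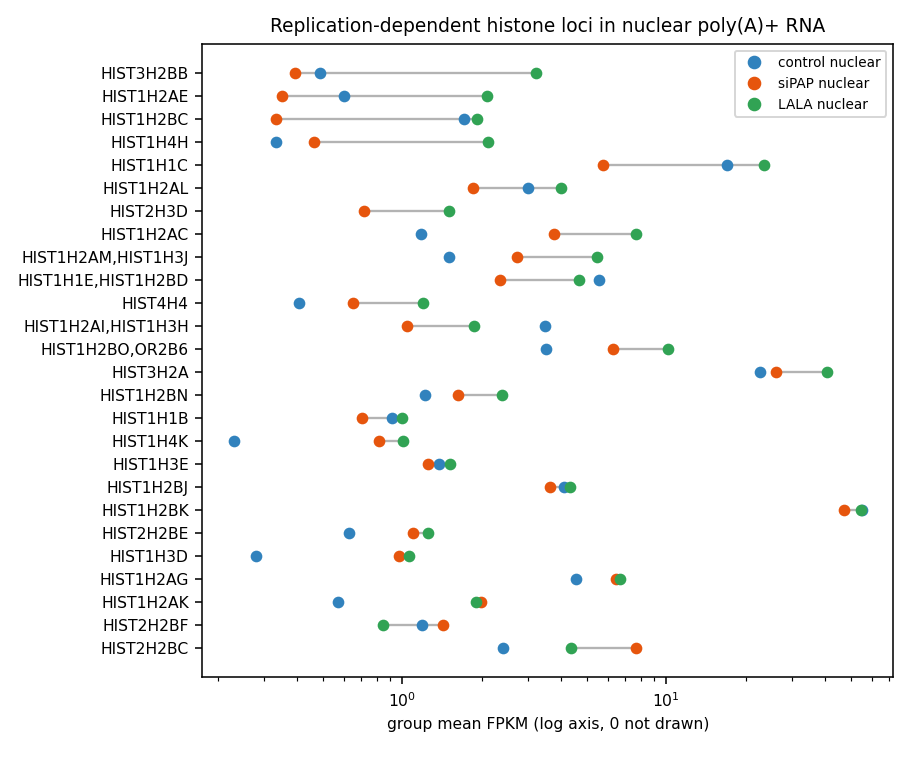
Group mean FPKM on a log axis for the 26 measured replication-dependent histone loci in nuclear RNA, ordered by the ratio of LALA over siPAP, with a line joining those 2 groups. LALA lies right of siPAP in 23 of 26 loci, and most values are under 5 FPKM.

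Replacement histones, whose mRNAs are polyadenylated and made throughout the cell cycle, had a median of -0.17 over 11 loci with none past 2-fold. H3F3A, an H3.3 gene, was at 332 FPKM in siPAP and 278 in LALA nuclear RNA, and H1F0, a linker histone gene, at 43.9 and 53.6. Of 8 loci for the processing of histone mRNA none passed 2-fold, and SLBP, the stem-loop binding protein, was at 96.9 and 80.4 FPKM.

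DNA replication genes had the lowest median of the lists, -0.35 over 44 loci, none past 2-fold. MCM5, a subunit of the replicative helicase, was at 57.2 FPKM in control, 62.0 in siPAP and 37.8 in LALA nuclear RNA. MCM6 was at 91.8, 99.4 and 62.6 FPKM and MCM7 at 224, 236 and 159.9. LIG1, the DNA ligase that joins Okazaki fragments, was at 37.4, 34.1 and 23.4 FPKM. In all 4 genes LALA was lowest, and over the list the median was -0.35 for LALA over control and 0.00 for siPAP over control. LALA was below siPAP in 36 of the 44 loci (81.8%), against 58.8% of all measured loci and 73.6% of those with a mean of 30 to 100 FPKM. Mitotic genes had a median of -0.02 over 37 loci.

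Targets of p53 lay on the other side. Of 29 loci, 24 (82.8%) were higher in LALA than in siPAP, against 41.2% of all measured loci, with a median of 0.19. At least 2-fold higher were 2 (6.90%, beside 2.82% of all loci), and none were lower. CDKN1A, the p21 inhibitor of cyclin-dependent kinases, was at 13.8 FPKM in control, 9.19 in siPAP and 15.1 in LALA nuclear RNA. MDM2, the ubiquitin ligase of p53, was at 41.4, 20.2 and 32.1 FPKM, and ZMAT3, a zinc finger RNA-binding protein, at 10.7, 7.99 and 12.2. In these genes siPAP was lowest, and siPAP was below control nuclear RNA in 23 of 29 loci and siPAP total was below control total RNA in 25, against 58.6% and 55.5% of all measured loci. The genes past 2-fold, TP53I3 and GDF15, were weak, at 0.416 and 0.378 FPKM in siPAP and 1.42 and 1.29 in LALA. HEK293 cells carry adenoviral proteins that bind p53.

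Housekeeping groups of high expression were slightly lower in LALA. Cytosolic ribosomal proteins had a median of -0.26 over 85 loci, 82 of them below 0, and glycolysis genes -0.24 over 17, 15 of them below 0, where the median of all loci over 100 FPKM was -0.20 and 84.9% of them lay below 0. RPS16, a small-subunit protein gene, was at 731 FPKM in control, 696 in siPAP and 502 in LALA nuclear RNA, and PKM, the pyruvate kinase gene, at 386, 357 and 254. The reference genes GAPDH and ACTB were at 964 and 1215 FPKM in siPAP and 769 and 1012 in LALA. FPKM values are relative, so a group that is lower everywhere and a shift of the scale cannot be told apart. Mitochondrial ribosomal proteins (75 loci), respiratory complex I (48) and the other respiratory complexes (43) had medians of -0.11, -0.06 and -0.12, none past 2-fold.

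Splicing and nuclear RNA-binding proteins followed the same small shift, with medians of -0.16 over 27 hnRNP loci and -0.16 over 30 loci of SR proteins and CLK kinases, and none past 2-fold. ARGLU1, a splicing coactivator gene with a nuclear retained-intron RNA, was at 126 FPKM in control, 185 in siPAP and 100.1 in LALA nuclear RNA. OGT, the O-GlcNAc transferase gene, was at 84.4, 107 and 80.5 FPKM. MAGOHB, an exon junction complex subunit, was at 19.5, 27.8 and 14.4 FPKM, the largest ratio of the 16 nonsense-mediated decay loci. In each of these 3 genes siPAP was highest and LALA lowest. The methionine adenosyltransferase gene MAT2A, which also has a retained-intron nuclear RNA, was high under both treatments, at 135, 345 and 284 FPKM.

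Long nuclear noncoding RNAs were split. MALAT1, a speckle RNA, was at 25.4 FPKM in control, 27.9 in siPAP and 52.4 in LALA nuclear RNA. The study states that MALAT1 lacks a poly(A) tail, so its level in these polyadenylated RNA libraries need not follow its amount in the cell. NEAT1, the scaffold of paraspeckles, was at 54.7, 149.8 and 172 FPKM, high under both treatments. TUG1 was at 84.1, 169 and 121 FPKM and LINC00657, also known as NORAD, at 157, 249 and 161. LALA was thus apart from both other groups for MALAT1, siPAP for LINC00657, and neither for NEAT1. Of 13 such loci none passed 2-fold. Among 18 loci of snoRNA host genes only the SNHG7 locus passed it, at 71.8 FPKM in control, 220.0 in siPAP and 75.1 in LALA, while SNHG1 was at 264, 571 and 444. The SNHG7 locus also carries the names of the snoRNAs SNORA17 and SNORA43. In total RNA it was at 87.2 FPKM in control and 73.7 in siPAP, so the higher siPAP level was not seen there.

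**Figure D5:**
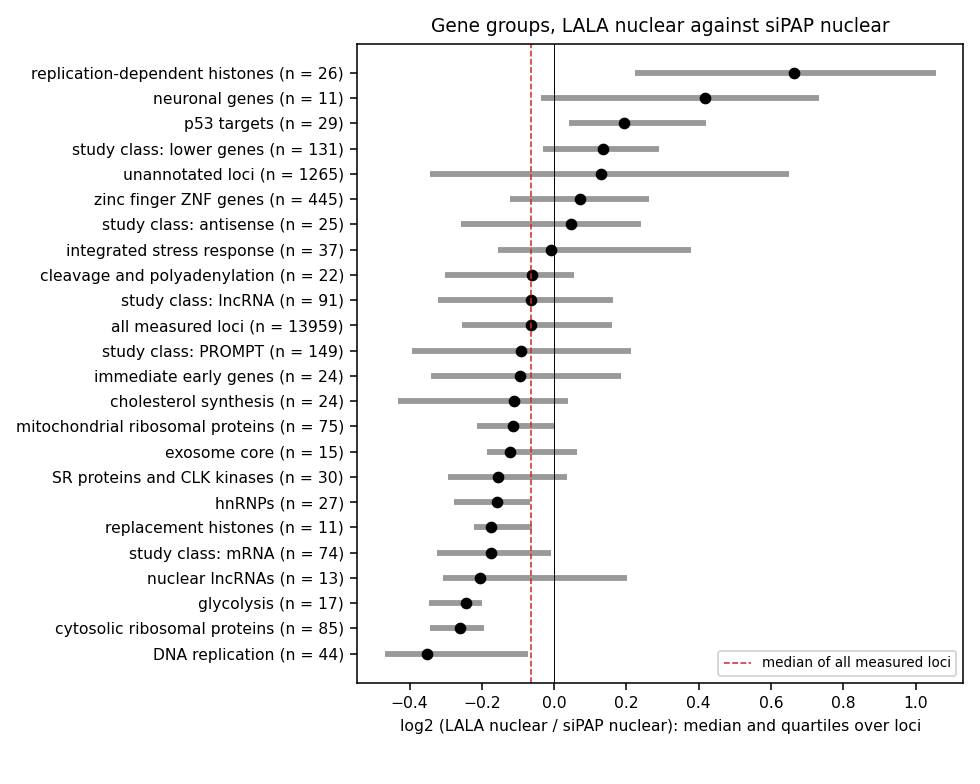
Median (point) and quartiles (bar) of the log2 ratio of LALA nuclear over siPAP nuclear RNA over the measured loci of each group, with the number of loci. Replication-dependent histones lie highest at 0.66 and DNA replication genes lowest at -0.35, while the dashed line marks the median of all measured loci at -0.06.

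The study's targets of hyperadenylation-linked decay were RNAs above control under each treatment in nuclear RNA and under siPAP in total RNA. These loci, 353 of them measured, were thus chosen on the same samples, and in the listed classes both treatments lie above control by that choice. The choice also leaves out loci above control under one treatment alone, which limits how far LALA and siPAP can differ, so the counts are a description and are not read against the shares of all measured loci (2.82% and 1.25%). None was at least 2-fold higher in LALA and 10 were lower, and the median was -0.11. Promoter upstream transcripts (PROMPTs), which run away from an active promoter on the opposite strand, had a median of -0.09 over 149 loci with 5 lower. Long noncoding RNAs had -0.06 over 91 with 4 lower, mRNAs -0.18 over 74 with 1 lower, and antisense RNAs 0.05 over 25 with none past 2-fold. A separate list, chosen in the same way for loci below control in all comparisons, held 131 measured loci that had a median of 0.13, with none past 2-fold.

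The 5 PROMPT loci at least 2-fold lower in LALA were those of SLC30A9, STAM, CHORDC1, UQCRC2 and PTPN2. The SLC30A9 PROMPT was at 0.763 FPKM in control, 6.02 in siPAP and 2.75 in LALA nuclear RNA, that of STAM at 1.22, 6.34 and 2.90, and that of CHORDC1 at 1.08, 6.70 and 3.08. On the other side, the PRPF38B PROMPT was at 3.50, 9.34 and 17.3 FPKM and the ZBTB47 PROMPT at 0.436, 1.46 and 2.80. All 5 were lowest in control. The last 60 bases of the assembled loci are shown for 3 of these, all lower in LALA, since the tail is added at the 3′ end. They are read on the strand opposite to the partner gene from GRCh37 (hg19), 5′ to 3′, and AATAAA and ATTAAA, the usual polyadenylation signals, were searched on that strand.
SLC30A9 PROMPT, chr4:41990417-41990476, minus strand: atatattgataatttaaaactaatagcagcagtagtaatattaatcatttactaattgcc
STAM PROMPT, chr10:17683410-17683469, minus strand: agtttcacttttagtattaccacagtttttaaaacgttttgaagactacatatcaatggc
CHORDC1 PROMPT, chr11:89959396-89959455, plus strand: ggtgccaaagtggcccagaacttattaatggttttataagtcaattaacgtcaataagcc
None of these 3 held a signal in this window. Among the 81 unannotated PROMPT loci whose partner strand could be read, 14 (17.3%) held AATAAA or ATTAAA on that strand in the last 60 bases and 1 (1.23%) in the first 60. The median log2 ratio was 0.18 for the 14 with a signal and -0.08 for the 67 without, and an assembled end need not be the cleavage site. Some of the 81 loci overlapped the partner gene over a long span, as that of GSK3B with 279703 bases. The ends of such loci need not be PROMPT ends.

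The members of the other classes with the lowest ratios, DKFZP434I0714 among long noncoding RNAs and KLHL31 among mRNAs, are described above. LOC100216546, a long noncoding RNA, was at 3.14 FPKM in control, 20.2 in siPAP and 9.46 in LALA nuclear RNA. TSPYL4 was at 11.9, 35.5 and 21.5 FPKM and BBS10, a chaperonin-like protein of the primary cilium, at 11.3, 27.5 and 16.7, both from the mRNA class, with log2 ratios of -0.72 and -0.72. OAS3, an antiviral oligoadenylate synthetase, was the mRNA target with the largest ratio above 0, at 1.201, 1.85 and 3.11 FPKM. Among the genes lower than control, LNPEP, an aminopeptidase of vesicles, was at 17.4, 6.64 and 12.4 FPKM, and STMN3, a neuronal stathmin, at 13.8, 4.08 and 7.26. For both, LALA lay between siPAP and control.

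The 8 primary microRNA transcripts of the study's list had close levels under both treatments, with a median of -0.01. The MIR21 transcript was at 8.12 FPKM in control, 20.7 in siPAP and 22.9 in LALA nuclear RNA, that of MIR31 at 1.73, 5.08 and 4.44, that of MIR148A at 1.76, 6.62 and 6.14, and that of MIR24-2 at 2.23, 5.55 and 6.24. In all 4 both treatments lay above control. These are levels of the precursor and not of the mature microRNA, whose sequences are given from RefSeq (GRCh38.p14) to show what the transcripts encode, with the seed, bases 2 to 8, in capitals.
hsa-miR-21-5p: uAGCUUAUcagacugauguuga
hsa-miR-31-5p: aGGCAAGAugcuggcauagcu
hsa-miR-148a-3p: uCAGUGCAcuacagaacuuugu
hsa-miR-24-3p: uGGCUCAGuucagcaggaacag
No seed was shared among the 4. The largest difference of the 8 was that of the MIR4458 transcript, at 19.3 FPKM in siPAP and 12.9 in LALA.

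Loci with no gene name varied more than named ones. Of 1265 measured unannotated loci, 185 were at least 2-fold higher in LALA and 87 lower, against 209 and 88 of 12694 named loci, and their medians were 0.13 and -0.07, with -0.20 for the unannotated loci that reached 5 FPKM. At a mean under 2 FPKM, where 725 of the unannotated loci fell, the medians were 0.29 for unannotated and 0.19 for named loci, and at 2 to 5 FPKM they were 0.02 and 0.04. The median log2 ratios of unannotated loci were 0.97 for LALA over control and 0.82 for siPAP over control. The minimum of 1 FPKM was set on LALA or siPAP and not on control, where their median was 0.919 FPKM. Weak loci thus entered through a treated group, which favours ratios above control, so these medians are a description only. Among those with at least 5 FPKM, XLOC_013860 on chromosome 19 was at 0.586 FPKM in control, 1.62 in siPAP and 7.13 in LALA nuclear RNA, and XLOC_011297 on chromosome 17 at 1.73, 9.59 and 1.49. The extreme ratios came from a few loci. XLOC_000805 (chr1:143283195-143467668) was at 854, 0.508 and 632 FPKM, and XLOC_003557 (chr10:135387880-135388059) at 23.4, 377 and 13.5. Short spans were over-represented at the extremes, with 7 higher and 17 lower of the 53 loci under 300 bases, against 209 higher and 95 lower of the 11518 over 10 kb.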

How the data were processed

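Stranded poly(A)+ libraries of HEK293 cells were sequenced, with 2 per group. Per the labels, the authors' processing named TopHat2, Cuffdiff and edgeR, with the hg19 build. FPKM values were deposited by the authors as 1 mean per group for 10 pairs of groups, from Cuffdiff. The 5 columns of the authors' own comparisons (log2 ratio, test statistic, p-value, q-value and call) were not used or printed. Each row pairing LALA nuclear with siPAP nuclear RNA was taken, loci of chromosome Y were left out, and the log2 ratio of the FPKM means was computed without a pseudocount for loci whose means were both above 0 and reached 1 FPKM in LALA or siPAP. Loci past 2-fold were counted, with no test, since the file holds no library values. Assembled loci, named as in the file, can hold several genes. The genes named were the 15 single-name genes, names of microRNAs and other small RNAs left out, with at least 5 FPKM and the largest ratio in each direction, 5 unannotated loci per direction, 4 members per list and 3 per class and direction, together with the targeted genes, and others are said to be chosen later or stand as members of a list. The members and lists were chosen with earlier results of these data known. Of these, 1 gene, and 1 sequence of a class member, are not reported here. Class labels came from the study and were matched by locus identifier. Alternatives added 0.1 or 1 FPKM, changed the minimum, the fold, the scaling or the loci, and are given at the end. The counting of loci was tested on simulated data. Python 3 with pandas, numpy and matplotlib was used.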

Additional observations from a re-analysis of the deposited data

How the results depend on the processing

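Of the medians rerun under the alternatives, only that of unannotated loci and that of all loci changed direction. The median of unannotated loci was 0.13 as reported, -0.20 at 5 FPKM or more and 0.28 with no minimum. The median of all loci ranged from -0.12 to 0.02. Medians of the other lists and classes were not rerun. The number of loci at least 2-fold higher in LALA, 394, was 102 with 1 FPKM added to both means, 70 with at least 5 FPKM, 2710 with no minimum and 1035 at 1.5-fold. The number at least 2-fold lower, 175, was 66, 80, 731 and 737 under the same settings, so the excess of higher loci was not seen at 5 FPKM. Fewer weakly expressed loci enter that setting by its construction. With 0.1 FPKM added the counts were 347 and 152, after centring 456 and 140, with equal sums of FPKM 360 and 204, with the loci that the deposited table marks as testable 392 and 171, and without loci under 1 kb 322 and 133. The medians of PROMPT, mRNA and replication-dependent histone loci kept their sign, at -0.23 to -0.03, -0.23 to -0.11 and 0.45 to 0.73. Of the 60 named loci past 2-fold, 43 remained so with 1 FPKM added and 56 after centring, and 1 of the 276 named loci changed sign with centring. No paired analysis was possible because the table holds 1 mean per group and no value of a numbered library, and for the same reason no single library was omitted. No source used here gives the reads behind a mean, so the counting error of weak loci is unknown.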

Other observations

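Gene groups for signalling and stress, not described as groups in the text above, had medians near that of all loci with single members apart. Some members, such as HSPA1B, are among the genes named above. Immediate early genes, transcribed within minutes of a growth stimulus, had a median log2 ratio of -0.09 over 24 loci. At least 2-fold higher were 2 of these (8.33%, beside 2.82% of all measured loci). JUN, an AP-1 subunit, was at 50.6 FPKM in control, 73.1 in siPAP and 43.5 in LALA nuclear RNA and JUND at 27.1, 29.0 and 18.8, whereas JUNB was at 6.99, 5.27 and 9.70. The JUN family was thus split, with JUNB highest and JUN and JUND lowest in LALA. The integrated stress response had a median of -0.01 over 37 loci, 2 of them (5.41%) at least 2-fold higher. In neither list did a locus of 5 FPKM or more pass 2-fold. PPP1R15A, also called GADD34, which recruits the phosphatase of eIF2α, was at 28.8, 31.1 and 46.8 FPKM, and DDIT3, the CHOP factor, at 9.75, 7.52 and 11.2. Heat shock genes had a median of -0.01 over 21 loci, and apart from HSPA1B the chaperone gene HSPH1 was at 101, 68.6 and 91.5 FPKM and its partner DNAJB1 at 55.8, 37.1 and 49.2. For these last genes siPAP was lowest.

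Neuronal genes, some of which HEK293 cells express, had a median of 0.42 over 11 loci, 8 of them above 0, where 41.2% of all measured loci were, and none past 2-fold. NEFL, a neurofilament gene, was at 15.7 FPKM in control, 9.25 in siPAP and 14.4 in LALA nuclear RNA, while the transcription factor genes SOX2 and SOX4 were lowest in LALA, at 3.91 and 45.4 FPKM against 7.39 and 65.4 in control. Cell adhesion and matrix genes had a median of -0.15 over 32 loci. CDH2 was the only one at least 2-fold higher, and COL5A1, a fibrillar collagen gene, was at 80.3, 99.4 and 56.5 FPKM. The matricellular gene CTGF was highest in LALA, at 75.6, 78.7 and 113 FPKM, and AMOTL1, which shares its regulation by YAP, was lowest, at 50.4, 63.5 and 40.3. Fatty acid synthesis genes had a median of -0.25 over 12 loci, 10 of them below 0, and cholesterol synthesis genes -0.11 over 24, 16 of them (66.7%) below 0, where 58.8% of all measured loci were. ACACA, the acetyl-CoA carboxylase gene, was at 16.4, 18.5 and 12.9 FPKM.

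Some loci named for microRNAs had large means. The locus named MIR4516, whose span in the table is 87910 bases, was listed at 0 in control nuclear RNA, at 6952 FPKM in siPAP and at 49484 in LALA, and MIR3661 was at 1135, 2439 and 7713 FPKM. Of 52 measured microRNA loci, 8 (15.4%) were at least 2-fold higher and none lower, beside 2.82% and 1.25% of all measured loci. Their median was -0.14, with 30 of the 52 below 0, beside a median of -0.06 for all measured loci. Means of such loci also varied widely between other groups, as for MIR4461 at 47602 FPKM in control total and 0 in siPAP total RNA. A further 63 loci reached 1 FPKM in one group and were listed at 0 in the other, 34 of them above 0 in LALA and 29 in siPAP, and they were left out of all counts. The median ratio ranged over the chromosomes with at least 100 measured loci from -0.14 on chromosome 22 to -0.01 on chromosome 19.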
